A study of Homo sapiens with 8 samples.

Results

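The regions described here are RBM45 CLIP peaks in the zinc finger gene clusters of human chromosome 19. CLIP (cross-linking and immunoprecipitation) pulls a protein down with the RNA fragments that ultraviolet light has joined to it, and a peak is a stretch where such fragments pile up. A peak was a member if its midpoint, on either strand, lay in 1 of 6 stretches of build hg19, numbered here in chromosome order: cluster 1 (chr19:11700000-12700000), cluster 2 (chr19:19800000-24400000), cluster 3 (chr19:36500000-38400000), cluster 4 (chr19:44300000-45000000), cluster 5 (chr19:52200000-54100000) and cluster 6 (chr19:56100000-59100000). Counting each peak once per strand on which it is listed (an entry), the members were 1128 of the 210878 entries of replicate 1 and 391 of the 65587 entries of replicate 2. They also held 72 of the 13758 pairs of overlapping peaks that the authors listed for both replicates.

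The cells were HEK293T, a transformed line derived from human embryonic kidney and long established in culture, transduced with a lentivirus for human RBM45 carrying a FLAG-HA tag, so all peaks come from an introduced and tagged protein. Cells were irradiated at 254 nm with 300 mJ/cm2, and tagged RBM45 was pulled down with an antibody to HA. The 8 samples were wild-type (WT) input, WT CLIP, Mettl3 KO input and Mettl3 KO CLIP, with 2 replicates each. All results below come from WT CLIP replicates 1 and 2, while input and Mettl3 KO libraries were not analysed here. The labels do not say whether replicates came from separate cultures, so the spread between them may be technical, and the read depth behind each list is unknown.

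Zinc finger proteins with a KRAB domain form the largest family of transcription factors in primates. The zinc fingers bind DNA and the KRAB domain recruits the corepressor TRIM28, which brings in enzymes that write repressive histone marks, and many of these proteins silence transposable elements. The genes multiplied by tandem duplication, which left rows of related genes, often in 1 orientation, and their finger arrays are usually encoded in a long last exon. RBM45 is an RNA-binding protein with several RNA recognition motifs, known in neural development and found in protein inclusions in amyotrophic lateral sclerosis. The GENCODE 29 annotation (build GRCh38) was used for names and neighbours alone. In it, 264 of 560 protein-coding genes with a symbol of ZNF, ZFP, ZIM, ZIK or ZSCAN and a number were on chromosome 19. Of all 19940 protein-coding genes, 1472 were there. Among pairs of genes with these symbols that are direct neighbours there, 119 of 194 lay on the same strand. The same share was not computed for other genes. The longest unbroken row ran over 18 genes from ZNF101 to ZNF493. The symbols do not separate KRAB genes from other zinc finger genes. Peaks were not assigned to genes, since the annotation and the peaks are in different builds, so the gene content of the 6 stretches was not checked against the label.

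RBM45 CLIP peaks were sparser in the clusters than in the rest of chromosome 19 in both replicates. The clusters took up 22.2% of chromosome 19 but held 8.996% of its replicate 1 entries, 8.20% of its replicate 2 entries and 5.50% of its pairs. Replicate 1 had 86.1 entries per Mb in the clusters and 248 in the rest of the chromosome, a ratio of 0.347. Replicate 2 had 29.8 per Mb in the clusters and 95.2 in the rest, a ratio of 0.313, so the mean ratio was 0.330 ± 0.024 (SD, n = 2). Pairs were sparser still, with 5.50 per Mb against 26.9, a ratio of 0.204. The deficit against the rest of the chromosome was thus present in each list and far larger than the spread between the 2 ratios. Of the whole lists, the clusters held 0.535% of replicate 1 entries, 0.596% of replicate 2 entries and 0.523% of pairs. The rest of chromosome 19 held 5.41%, 6.68% and 8.99%. No density was computed for other chromosomes, so a deficit against the genome is not shown. An exact two-sided permutation test of the 2 lists' densities, each divided by the list's density on chromosome 19, gave p = 0.333, which is the smallest p that 2 values against 2 allow. With both densities of a list kept as a pair the exact permutation test gave p = 0.5, again the smallest possible. The number of peaks in a stretch depends on how much RNA it gives as well as on binding, and RNA levels were not analysed here, so fewer bound sites and less RNA cannot be told apart. The clusters also hold related gene copies among which a short read may fit several places. How such reads were treated is not stated in the labels or file headers, and their part in the result was not tested.

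Every cluster lay below the rest of the chromosome in both replicates, but by very different amounts. Cluster 6, at the end of the long arm, was the densest, with 461 replicate 1 entries (154 per Mb, 0.619 of the rest) and 167 replicate 2 entries (55.7 per Mb, 0.585 of the rest). Cluster 3 followed with 257 and 97 entries, or 135 and 51.1 per Mb, at 0.545 and 0.536 of the rest. Entries count a peak listed on both strands 2 times, which raised cluster 3 most, since its entries came from 215 and 78 peaks. The rest had 11177 and 4324 peaks for its 11411 and 4380 entries. Densities per peak were not computed. Clusters 3 and 6 together held most members although cluster 2 was the longest at 4.6 Mb.

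Cluster 1 had 81 and 29 entries (81 and 29 per Mb), and its ratios to the rest were 0.326 and 0.305. Cluster 5 had 139 entries in replicate 1 (73.2 per Mb, ratio 0.295) and 35 in replicate 2 (18.4 per Mb, ratio 0.193). The emptiest stretches were clusters 2 and 4. Cluster 2 had 144 entries in replicate 1 (31.3 per Mb, ratio 0.126) and 56 in replicate 2 (12.2 per Mb, ratio 0.128). Cluster 4, only 0.7 Mb long, had 46 entries in replicate 1 (65.7 per Mb, ratio 0.265) but 7 in replicate 2 (10.0 per Mb, ratio 0.105). The order from dense to sparse was 6, 3, 1, 5, 4 and 2 in replicate 1, and clusters 2 and 4 changed places in replicate 2. The Spearman correlation of the 2 lists' densities over the 6 clusters, a description only, was 0.943. Clusters 2 and 4 therefore cannot be ordered, and for clusters 4 and 5 the SD of the ratio over the 2 lists, 0.113 and 0.072, was larger than for the other 4, where it ran from 0.0012 to 0.025.

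**Figure D1:**
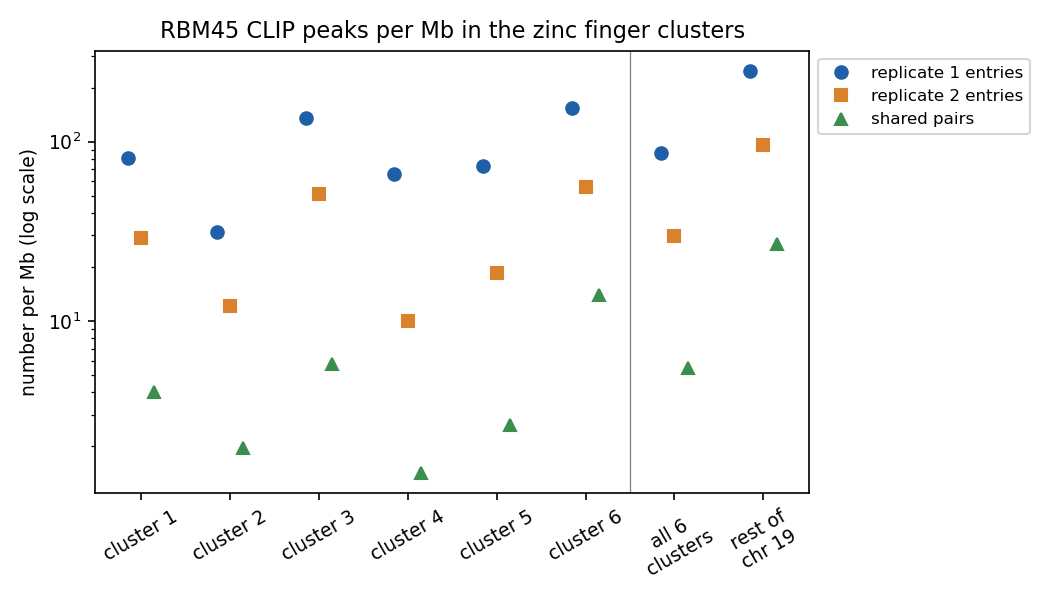
Entries and shared pairs per Mb (log axis) in each cluster, in all 6 clusters together and in the rest of chromosome 19, with 1 point per list. All 6 clusters lie below the rest in all 3 lists, and clusters 6 and 3 are the densest, at 154 and 135 replicate 1 entries per Mb against 248 in the rest.

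Within the clusters the peaks were gathered in a few windows. On a fixed grid of 100 kb with both strands together, the median window of the clusters had 5 replicate 1 entries and 1 replicate 2 entry, against 15 and 4 in the rest of the chromosome. No pair was found in 107 of 131 cluster windows (81.7%), against 238 of 460 windows (51.7%) in the rest. In cluster 2, 16 of 46 windows had no replicate 1 entry and 34 had no replicate 2 entry. The window counts of the 2 replicates ran together, with a Spearman correlation of 0.737 over the 131 cluster windows (Pearson 0.926) and 0.926 over the 460 others (Pearson 0.858). These correlations describe windows that share 2 libraries and are no test.

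The 4 fullest windows, chosen after their values were seen, were chr19:36500001-36600000 (107 replicate 1 and 39 replicate 2 entries), chr19:56600001-56700000 (87 and 29), chr19:56100001-56200000 (81 and 31) and chr19:59000001-59100000 (61 and 32). Counted once per peak, in the same order, they held 71 and 25, 87 and 29, 81 and 31, and 43 and 24 peaks. The 4 windows made up 3.05% of the clusters' length but held 29.8% of replicate 1 entries, 33.5% of replicate 2 entries and 39 of the 72 pairs (54.2%). All but the second lie against an outer limit of cluster 3 or 6. Without these 4 windows the ratio to the rest of the chromosome was 0.251 in replicate 1 and 0.215 in replicate 2, and the ratio for pairs fell from 0.204 to 0.0966. Cluster 6 without its 3 fullest windows had 85.9 and 27.8 entries per Mb, and cluster 3 without its fullest had 83.3 and 32.2. Cluster 1, from which no window was taken, had 81 and 29, so these values are not a like comparison. With every cluster trimmed by 100 kb at both ends, clusters 6, 3 and 1 had 114, 84.7 and 61.3 replicate 1 entries per Mb. For replicate 2 the values were 37.1, 32.9 and 16.3, so clusters 6 and 3 remained above cluster 1 after this trim. It left chr19:56600001-56700000 in cluster 6. It also shortened cluster 1 from 1 to 0.8 Mb but cluster 6 only from 3 to 2.8 Mb, so the clusters were not treated alike here either.

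Just inside and just outside the limits of the clusters the numbers were alike in sum, but not limit by limit. The end of cluster 6 was left out, since the list ends there. Over the other 11 limits, the first 100 kb inside held 245 replicate 1 entries, 98 replicate 2 entries and 23 pairs, and the first 100 kb outside held 251, 95 and 25. The inside stretch had fewer replicate 1 entries than the outside stretch at 7 of the 11 limits. At the start of cluster 3 the numbers were 107 inside and 4 outside, and at its end 6 inside and 81 outside. At the start of cluster 6 they were 81 inside and 5 outside. Most of the replicate 1 sum inside thus came from the starts of clusters 3 and 6, which are among the 4 fullest windows. When every cluster was trimmed by 100 kb at both ends, the ratios to the rest fell to 0.278, 0.230 and 0.125 for replicate 1, replicate 2 and pairs. Trimmed cluster 1 then held no pair, and 0 of its 13 replicate 2 entries overlapped replicate 1 (95% exact binomial interval 0 to 24.7%).

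**Figure D2:**
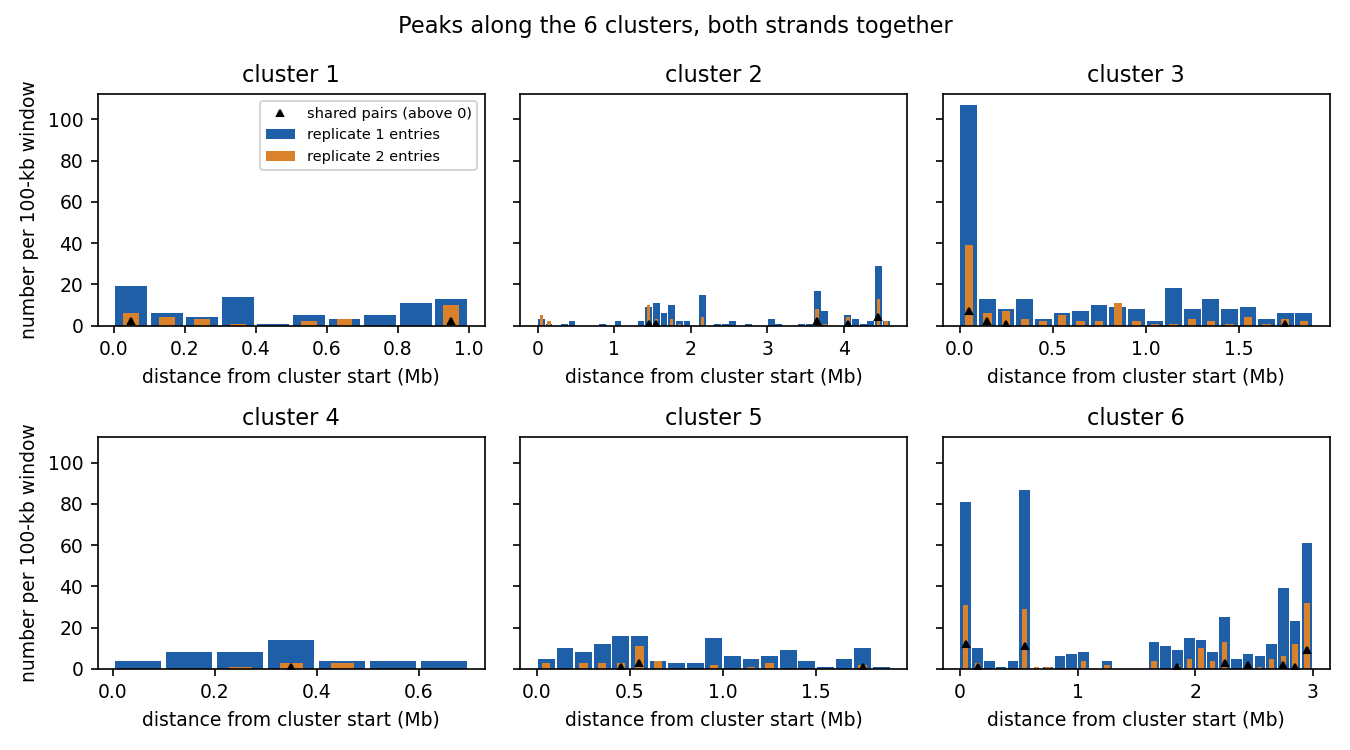
Entries of replicate 1 (wide bars), entries of replicate 2 (narrow bars) and pairs (triangles, where above 0) in each 100-kb window, against the distance from the start of each cluster in Mb. The 4 fullest windows, with 61 to 107 replicate 1 entries, stand in clusters 3 and 6, while the other clusters reach at most 29.

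Peaks in the clusters recurred less often between replicates than elsewhere on the chromosome. An entry recurred if it shared 1 base or more with an entry of the other list, strand for strand. Of the 391 replicate 2 entries, 124 overlapped replicate 1, which is 31.7% (95% exact Clopper-Pearson interval 27.1 to 36.6), against 1775 of 4380 or 40.5% in the rest of chromosome 19 (39.1 to 42.0) and 28.8% in the whole list. From the other side, 119 of 1128 replicate 1 entries, or 10.5% (8.82 to 12.5), overlapped replicate 2, against 15.3% in the rest (14.7 to 15.99) and 8.88% in the whole list. The share thus lay below the rest of the chromosome in both directions, with intervals that did not meet, and close to the whole list. These intervals cover counting error only and treat neighbouring peaks as independent, so they are too narrow, and no test over peaks was made.

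This average hid a division between cluster 6 and the others. In cluster 6, 78 of 167 replicate 2 entries overlapped replicate 1, or 46.7% (39.0 to 54.6), and 73 of 461 replicate 1 entries overlapped replicate 2, or 15.8% (12.6 to 19.5). Both shares lay within counting error of the rest of the chromosome. In clusters 1 to 5 together, 46 of 224 replicate 2 entries overlapped, or 20.5% (15.4 to 26.4), and 46 of 667 replicate 1 entries, or 6.90% (5.09 to 9.09). One by one, the replicate 2 shares were 17.2% in cluster 1 (5 of 29), 19.6% in cluster 2 (11 of 56), 22.7% in cluster 3 (22 of 97), 14.3% in cluster 4 (1 of 7) and 20.0% in cluster 5 (7 of 35). Their intervals overlapped one another, and in cluster 4 the interval ran from 0.361 to 57.9%, so these 5 clusters could not be distinguished at this number of peaks. The 4 fullest windows carried most of the recurrence: 73 of their 131 replicate 2 entries overlapped, and without them 51 of 260 did, or 19.6% (14.97 to 24.97). The share was 71.0% in chr19:56100001-56200000, 58.6% in chr19:56600001-56700000, 56.3% in chr19:59000001-59100000 and 41.0% in chr19:36500001-36600000. Cluster 6 without its 3 windows stood at 28.0% (18.2 to 39.6), and cluster 3 without its window at 10.3% (3.89 to 21.2). Recurrence was thus higher in the 4 fullest windows than in the remainder of the clusters, and what peak density contributed was not tested.

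**Figure D3:**
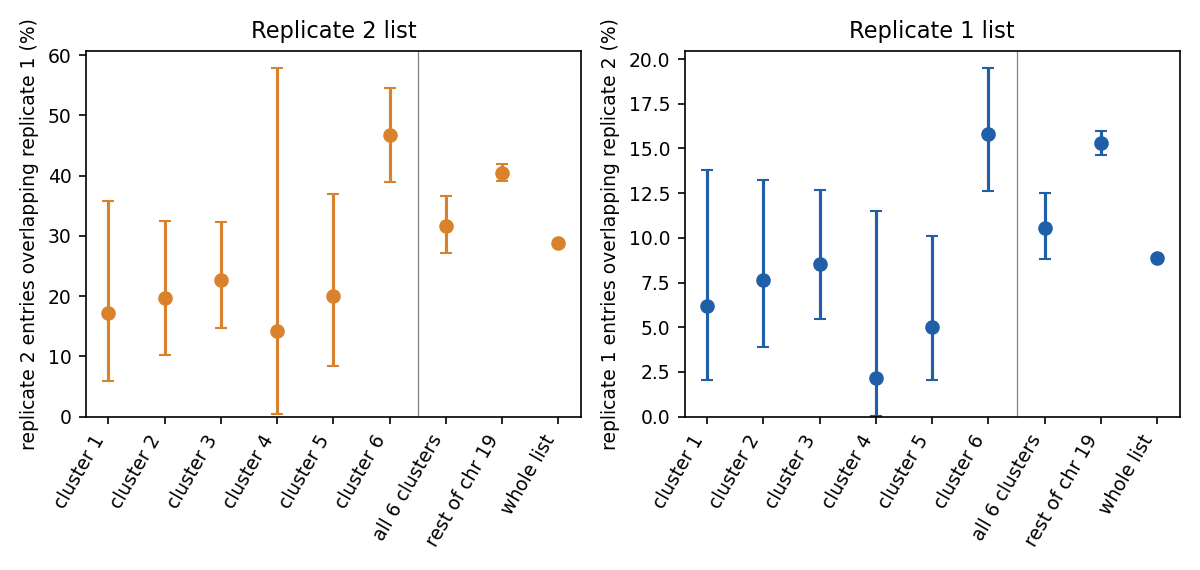
Share of entries that overlapped the other replicate, in percent, for replicate 2 (left) and replicate 1 (right), with 95% exact binomial intervals as error bars. Cluster 6 stands with the rest of chromosome 19 (46.7% and 40.5% in replicate 2), while clusters 1 to 5 lie between 14.3% and 22.7%.

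The size of these shares depended on the definition of overlap and on list length, but the clusters stayed below the rest of the chromosome. With at least 50% of both peaks shared, 16.9% of replicate 2 entries in the clusters overlapped, against 26.1% in the rest. With the replicate 1 list reduced to its strongest 65587 entries, 18.4% overlapped, against 26.6%.

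By the caller's −log10 p, cluster peaks were weaker than those of the rest of the chromosome. They were close to the whole list in replicate 1 and below it in replicate 2. The median in replicate 1 was 3.68 in the clusters, 4.20 in the rest and 3.70 in the whole list, and in replicate 2 it was 3.94, 4.63 and 4.24. The strongest of 10 equal strength classes of the whole list took in 9.49% of cluster entries and 14.2% of the others in replicate 1, and 7.67% and 13.01% in replicate 2. Weighting the cluster entries to the strength mix of the rest raised the overlapping share from 31.7% to 33.9% in replicate 2 and from 10.5% to 12.1% in replicate 1, still below 40.5% and 15.3%. Class by class, the share was lower in the clusters in 9 of 10 classes of replicate 1 and in 6 of 10 of replicate 2. Entries of equal −log10 p were split between classes by their position in the genome. The weighting and this count are therefore not by strength alone. The widest gap was among the strongest replicate 2 entries: of 30 in the clusters 36.7% overlapped replicate 1 (19.9 to 56.1), while of 570 in the rest 67.2% did (63.2 to 71.0). In replicate 1 the strongest class gave 33.6% (24.8 to 43.4) and 39.5% (37.2 to 42.0), and these intervals overlap.

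Cluster entries without an overlap were farther from the other list than those in the rest of the chromosome, and close to the whole list. Of the 267 replicate 2 entries in the clusters that overlapped nothing, 7.12% had a replicate 1 entry of the same strand within 100 bases and 52.4% within 1000 bases, midpoint to midpoint. In the rest of the chromosome the values were 12.9% and 78.7% of 2605 entries. In the whole list they were 7.03% and 55.3% of 46673 entries. Counting all entries, overlapping ones included, a replicate 1 entry on the same strand lay within 100 bases of 36.6% of replicate 2 entries in the clusters and of 47.9% in the rest. Within 1000 bases the values were 67.5% and 87.3%, and within 10000 bases 94.1% and 99.5%. For the whole list they were 33.8% within 100 bases, 68.2% within 1000 and 96.3% within 10000. Replicate 1 entries were also sparser in the clusters, at 86.1 per Mb against 248 in the rest. What this contributed to the distances was not tested. Cluster 6 reached 53.3% within 100 bases, and cluster 2 reached 21.4%. In cluster 2, a replicate 1 entry lay within 10000 bases of 87.5% of the replicate 2 entries.

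**Figure D4:**
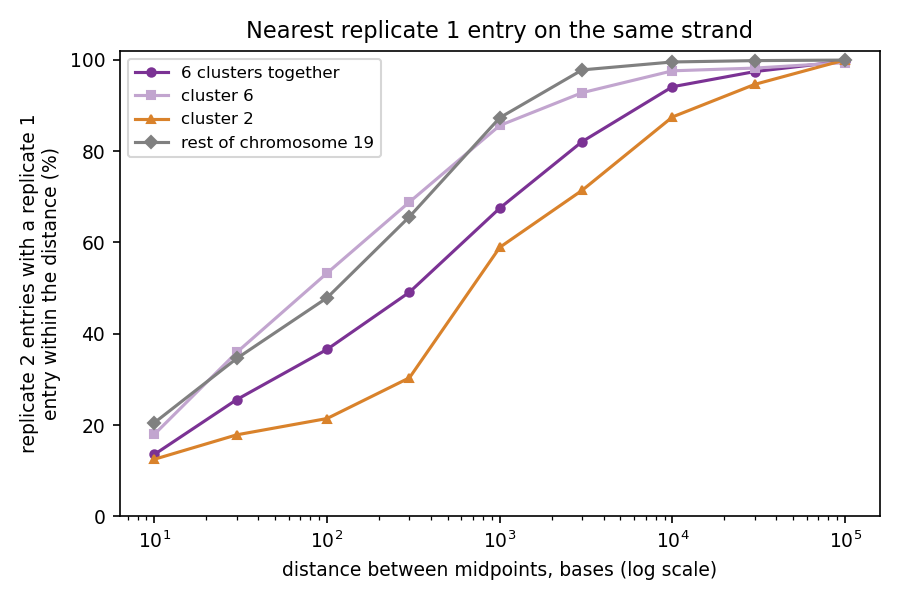
Percentage of replicate 2 entries with a replicate 1 entry of the same strand within a given distance (log axis, bases between midpoints), for all clusters, clusters 2 and 6 and the rest of chromosome 19. Cluster 6 runs close to the rest up to 1000 bases (85.6% and 87.3%), and cluster 2 stays lower at 58.9%.

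In width and fold the cluster peaks were close to the average of the whole lists, while those of the rest of the chromosome were wider and higher. The median cluster peak was 30 bases wide in both replicates, the lower limit of the lists. It was 33 bases in the rest of the chromosome, and 30 and 31 bases in the whole lists. Exactly the minimum width was found for 53.4% and 50.6% of cluster peaks, 41.2% and 38.6% of those in the rest and 51.6% and 47.9% of the whole lists. The authors' fold enrichment over the caller's background was 3.12 at the median of replicate 1 members, with quartiles at 2.80 and 3.96, and 3.31 in the rest, with quartiles at 3.04 and 4.42. For replicate 2 the medians were 3.71 (quartiles 3.16 and 4.41) in the clusters and 3.86 (3.21 and 4.98) in the rest. The whole lists had medians of 3.12 and 3.81. Entries above 5-fold numbered 104 of 1128 in replicate 1 (9.22%), against 9.16% of the whole list and 13.8% of the rest of the chromosome. In replicate 2 they numbered 59 of 391 (15.1%), against 18.0% of the whole list and 23.4% of the rest. The share above 5-fold was thus near the genome-wide value in replicate 1 and below it in replicate 2. Above 10-fold the clusters had no entry of 1128 in replicate 1 and 1 of 391 in replicate 2. The rest of the chromosome had 54 of 11411 and 42 of 4380, and the whole lists 589 of 210878 and 304 of 65587. The cluster numbers at this threshold are too small to compare. Cluster 3 had the largest share above 5-fold in replicate 1, 15.2% (39 of 257), and cluster 2 in replicate 2, 19.6% (11 of 56).

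Listing on both strands was more frequent in cluster 3 than in the rest of the chromosome in both replicates. There 42 of 215 replicate 1 peaks (19.5%) and 19 of 78 replicate 2 peaks (24.4%) were listed on both strands, against 2.09% and 1.30% in the rest of chromosome 19. The window chr19:36500001-36600000 held 36 of the 42 and 14 of the 19. The window chr19:59000001-59100000 of cluster 6 held another 18 in replicate 1 and 8 in replicate 2, and clusters 1 and 4 had none in either list. Such a peak gives 2 entries, so counts by strand are higher there than counts of peaks. Its 2 entries carry the same position and fold, so the listed strand is no separate measurement for such a peak. Pairs can be repeated in this way too, as at chr19:36518338-36518377, with 2.62-fold in replicate 1 on both strands. With strand ignored and each peak counted once, the overlapping share was 30.9% in the clusters and 40.1% in the rest.

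By the strand listed, filled windows were often 1-sided. How strand was assigned to a peak was not examined here. Among the 34 windows with at least 10 replicate 1 entries, 21 (61.8%) had at least 90% of them on 1 strand, against 138 of 260 (53.1%) in the rest. The window chr19:24200001-24300000 in cluster 2 had 29 replicate 1 and 13 replicate 2 entries on the plus strand and none on the minus strand. The fullest windows of clusters 1, 4 and 5 named below were also empty on the minus strand. Over whole clusters the plus strand carried 62.9% of replicate 1 and 72.5% of replicate 2 entries in cluster 6. In the rest of the chromosome it carried 54.3% and 57.0%, and in the whole lists 52.2% and 52.1%. In cluster 5 the replicates differed, with 43.2% plus in replicate 1 and 65.7% in replicate 2, and all 5 pairs there were on the plus strand.

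Pairs in the clusters were few, and their partners lay about as close as in the rest of the chromosome. Their midpoints lay a median of 5.5 bases apart, as in the rest of the chromosome, and within 10 bases in 73.6% of pairs. In the rest 69.6% lay within 10 bases. Over all pairs of the genome the median was 4 bases, and 74.5% lay within 10. This closeness follows in part from the pairing rule, which asked that the overlap cover at least 50% of the replicate 1 peak. The fold values of the 2 replicates were within a factor of 2 in 90.3% of pairs (89.9% in the rest), and the median fold was 3.98 in replicate 1 and 3.86 in replicate 2. Both folds exceeded 5 in 5 of 72 pairs (6.94%), against 212 of 1237 (17.1%) in the rest and 1919 of 13758 (13.9%) over all pairs. Pairs stood mostly alone, since 52 of 72 (72.2%) had no other pair within 1 kb on the strand, against 58.4% in the rest. Only 1 run had at least 3 pairs, each within 1 kb of the next. It had 4 pairs, 5.56% of those in the clusters, on the plus strand at chr19:56169249-56171624 in cluster 6. The rest of the chromosome had 60 such runs with up to 9 pairs, which held 18.2% of its pairs.

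The window of 1 strand with most pairs was chr19:56100001-56200000, plus strand, in cluster 6, with 12 pairs spread over 71.4 kb among 77 replicate 1 and 30 replicate 2 entries. The minus strand of the same window had 4 and 1 entries and no pair. Next came chr19:56600001-56700000, minus strand, with 9 pairs within 22.7 kb, and chr19:59000001-59100000, plus strand, with 7 pairs within 31.1 kb. Each of the other clusters had at most 5 pairs in any such window. Cluster 3 had 5 in chr19:36500001-36600000, cluster 2 had 4 in chr19:24200001-24300000, cluster 5 had 3 in chr19:52700001-52800000, cluster 1 had 2 in chr19:11700001-11800000 and cluster 4 had its single pair in chr19:44600001-44700000, all on the plus strand.

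In each cluster the pair whose lower fold was highest is given here. In cluster 1 the plus-strand peak chr19:11714796-11714852 had a fold of 8.71 in replicate 1, and its replicate 2 partner chr19:11714799-11714832 had 6.095. In cluster 5 the plus-strand peak chr19:52711591-52711627 had 6.63 and its partner chr19:52711599-52711630 had 5.98. In cluster 3 the plus-strand peak chr19:36716533-36716565 had 5.88, and its partner, which shared all 33 of its bases, had 8.95. These 3 sites were thus above 5-fold in both libraries. In cluster 6 the best pair was wide, with chr19:56181829-56181929 (101 bases, 5.42-fold) and chr19:56181815-56181922 (108 bases, 6.06-fold). In cluster 2 a minus-strand pair at chr19:23450123-23450152 had 4.86 and 5.62. The single pair of cluster 4, at chr19:44670251-44670280, was weak in both lists, with 2.30 and 2.74.

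Of the 3 members with the highest scores in each list, most had no partner in the other list. In replicate 1 they were a minus-strand peak at chr19:38389487-38389516 in cluster 3 (3.59-fold, −log10 p 22.9, rank 693 in the whole list) and a peak at chr19:59078014-59078046 in cluster 6 listed on both strands (9.76-fold, −log10 p 21.6). None of these 3 entries, 2 of them from 1 peak, overlapped replicate 2. Over the strongest of the 10 strength classes, 33.6% of replicate 1 and 36.7% of replicate 2 cluster entries overlapped the other list. Among all cluster entries 10.5% and 31.7% did, so the 3 named entries do not stand for strong members at large. In replicate 2 the strongest was chr19:12660728-12660809, minus strand, in cluster 1, with 14.3-fold, −log10 p 39.4 and rank 70 in its list. It had no replicate 1 partner, and it is the only member above 10-fold. The next, chr19:58901270-58901308 on the plus strand (7.18-fold, −log10 p 28.1), had none either. The third, chr19:56185844-56186058 on the plus strand in cluster 6, did recur. It was the widest member of replicate 2 with 215 bases and 5.58-fold, and it overlapped a replicate 1 peak of 145 bases and 4.54-fold. The widest member of replicate 1, chr19:56671696-56671914 with 219 bases and 6.10-fold, overlapped 2 replicate 2 peaks.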

How the data were processed

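The labels give 8 samples, and the peak lists of the 2 WT CLIP libraries and their list of pairs were used. The submitters' processing notes list, with no roles, build hg19 and the tools MACS2 (2.1.1.20160309), Novoalign (3.09.00), deepTools (3.2.1), HOMER (4.11.1) and bedtools (2.25.0). The peak names carry MACS2 and a p threshold of 0.005. What served as its control is not stated in the labels or file headers. The deposited lists give each peak an unadjusted −log10 p, a score that is 10 times this value without its decimals, and a ratio over background (the fold), all by the authors. The 8 count columns of the count table carry names that match no sample label and were not used, so depth is unknown.

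Repeated rows (467329 and 148958) were reduced to distinct combinations of peak and strand, giving 210878 and 65587 entries. All 13758 deposited pairs were the same-strand overlaps that cover at least 50% of the replicate 1 peak. A pair was placed by its replicate 1 midpoint. The length of chromosome 19 ran to its last listed peak. Regions were named by rule: in each cluster the pair with the highest lower fold and the 100-kb window with most pairs, and over all clusters the 3 windows with most pairs, the 3 highest scores and the widest peak of each list. The members and rules were chosen with earlier results of these data known. Overlap counts were checked on planted entries and against bedtools. Scripts ran in Python 3.11.15 with pandas 2.3.3, numpy 2.4.6, matplotlib 3.10.9 and scipy 1.17.1.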

Additional observations from a re-analysis of the deposited data

How the results depend on the processing

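Over 9 reported values and 41 recomputed ones, 0 reversed, 13 stayed within the spread or interval of the reported value, or on its side of the threshold, and 28 moved. The density ratio to the rest of chromosome 19 stayed below 1 under every setting run. For replicate 1, replicate 2 and pairs it was 0.321, 0.290 and 0.189 in windows with a listed peak, 0.278, 0.230 and 0.125 with clusters trimmed by 100 kb, and 0.307, 0.258 and 0.150 in the stronger 50% of each list. Added after seeing the data, it was 0.266, 0.233 and 0.110 without cluster 6, and 0.251, 0.215 and 0.0966 without the 4 fullest windows. The overlapping share was, for replicate 2 and replicate 1, 16.9% and 5.85% with 50% of both peaks shared, 18.4% and 20.3% with the longer list reduced, 23.8% and 7.42% with trimmed clusters, 20.5% and 6.90% without cluster 6, and 19.6% and 6.44% without the 4 windows. Fewer pairs can qualify under the stricter overlap; the cause of the other shifts was not tested. Median fold was 3.99 and 4.45 in the stronger 50% of replicate 1 and replicate 2, and 3.90 in replicate 1 entries that overlap. The rank correlation of cluster densities was 0.771 in the stronger 50%. Leaving out a replicate gives the order in the other list alone, as reported; its correlation with the mean order (0.943 and 1) says nothing on stability, since each list is part of that mean. In the stronger 50% cluster 4 had 0 replicate 2 entries, so it gave no share. With a replicate block, the cluster and rest densities of a list kept as a pair, the exact permutation p of 0.333 was 0.5; neither can pass the threshold with 2 lists. The block was added after seeing the data. The numbers of members, 7 to 167 replicate 2 entries per cluster, limit every comparison among clusters.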
